A study of Mus musculus with 115 samples.

Results

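Chemokines are small secreted proteins that direct the movement of leukocytes, and they are described here with the receptors that read them, in mouse liver and inguinal fat. The members are all genes whose symbol on the array begins with Ccl, Cxcl, Ccr or Cxcr followed by a number, together with Cx3cl1, Cx3cr1 and Xcl1. Cxcl9 and Cxcl10 are left out, as are names that begin with Ccrn or Ccrl. The rule found 49 genes, 35 ligands and 14 receptors, of 18120 symbols on the array, and 62 of its 25697 probes, 45 for ligands and 17 for receptors. No measured value entered the rule.

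The animals were B6.Cg-TgSry2Ei Srydl1Rlb/ArnoJ mice on a C57BL/6J background, a model in which the Y chromosome has lost the testis-determining gene Sry (written XY-) and Sry may be carried as an autosomal transgene. XX and XY- animals without the transgene have ovaries, and XXSry and XY-Sry animals have testes. All mice were gonadectomised at 75 days and received a Silastic capsule that was blank, held testosterone (5 mM) or held estradiol (50 µg in sesame oil), and tissue was taken after 3 weeks. With and without Sry therefore stands for a gonad that had been removed, so the contrast covers its earlier action and any effect of the transgene, which the design cannot tell apart, and the blank capsule is the shared control of both hormones. Liver was measured on 60 arrays, 5 in each of the 12 groups of genotype and treatment. Inguinal adipose was measured on 55, with 3 in XX blank, 4 in XX testosterone, XXSry estradiol and XY-Sry blank, and 5 in each of the others. The labels do not state that arrays of a group are different animals, so p-values measure the spread between these samples.

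A chemokine ligand binds a G protein-coupled receptor on the migrating cell, and the number of cysteines and their spacing divides ligands into CC, CXC, CX3C and XC families. Inflammatory chemokines such as Ccl2, Ccl7, Ccl8 and Ccl12 draw monocytes and other leukocytes into tissue, and in adipose tissue they are best known for the recruitment of macrophages. Homeostatic chemokines such as Ccl19, Ccl21 and Cxcl13 organise lymph nodes, where Ccr7 and Cxcr5 guide T and B cells. Inguinal fat surrounds a lymph node and, in animals with a mammary gland, ductal epithelium, so a piece of it can hold both.

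Values are log2 intensities after background correction and quantile normalisation within each tissue, and a difference of 1 is a doubling. A probe was tested where its detection p, the chance of its signal under the negative controls, was under 0.01 on at least 5 liver arrays or 3 adipose arrays. A call is a Benjamini-Hochberg adjusted p under 0.05 over all tested probes in limma, 11317 in liver and 14636 in adipose. Per array, 31.8 to 41% of probes were detected in liver and 40.3 to 49% in adipose, and the number of arrays limits the precision.

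Some arrays sat apart from their labels. Liver XY-Sry T replicate 5 had an Xist level of 6.63, against 4.43 to 4.64 on the other 4 arrays of that group. Liver XY- E replicate 5 had 12.26 for Hsd3b5, a steroid enzyme gene that lay at 11.15 to 12.95 under testosterone, against 4.5 to 7.5 on the other 4. The highest value among the remaining estradiol arrays was 11.19, also within the testosterone range, while blank arrays reached at most 7.36. That array was kept and is not counted as doubted below. The adipose array XX E replicate 1 is estradiol by its title and testosterone by another label field. It was kept as estradiol, and its level of the estrogen-induced gene Greb1 was 9.22, against 7.17 to 9.3 on the other estradiol arrays and at most 5.96 under testosterone. Adipocyte markers were high on every fat array, with a mean of 10.1 to 11.72, while skeletal muscle markers ranged from 5.87 to 13.9 and hepatocyte markers from 5.06 to 13.22 between pieces of fat. With the muscle score as a covariate 14 member probes were called for estradiol, 5 for gonad type and 2 for testosterone. In that fit 20.6%, 8.72% and 6.07% of all probes were called. Without the score the member counts were 13, 4 and 2, among 20.5%, 7.34% and 4.75% of all probes. The doubted arrays are liver XY-Sry T replicate 5, liver XY- E replicate 5 and adipose XX E replicate 1. Each count of called member probes below is given again without them where it moves by over 1.5 times.

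Adipose carried the broader chemokine repertoire. There, 46 of the 62 probes were tested, for 27 ligand and 7 receptor genes. In liver 24 were tested, for 17 genes. Ccl8 was detected on all 55 adipose arrays and on none of the 60 liver arrays. Ccl12, Ccl7, Cx3cl1, Cxcl4 and Cxcl15 were likewise detected on no liver array, against 50, 42, 50, 55 and 42 adipose arrays. Ccl9, a mouse chemokine of myeloid cells, Cxcl16, a membrane-anchored ligand of Cxcr6, and Cxcl12, the stromal ligand of Cxcr4, were detected on every array of both tissues by their brightest probe. Ccr2, the receptor of Ccl2, Ccl7 and Ccl12, was detected on no array of either tissue, and neither were Ccr1, Ccr3, Ccr4, Ccr9 and Cxcr6. A single probe below detection does not show that a gene is silent. The tissues were normalised separately, so levels are not set against each other across them.

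**Figure D1:**
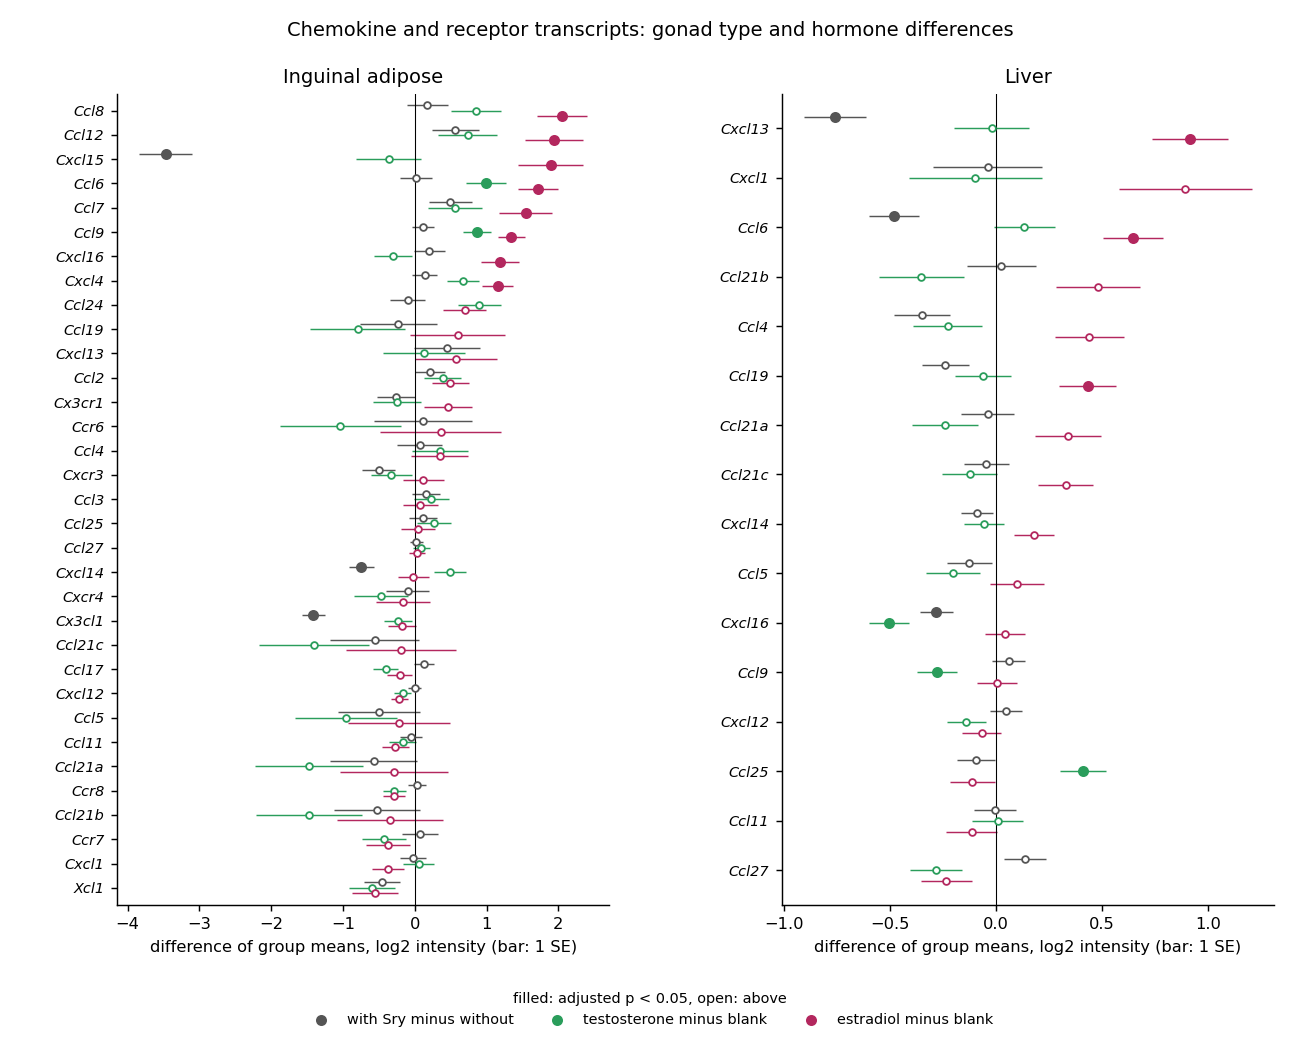
Log2 differences (x axis, bar 1 SE) of the tested members reported here in adipose (left) and liver (right), by the probe with the highest mean, for gonad type, testosterone and estradiol; filled points are calls. In adipose the filled estradiol points all lie to the right of 0, from Cxcl4 at 1.15 to Ccl8 at 2.05, and Cxcl15 lies at -3.47 for gonad type.

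Estradiol raised chemokine transcripts in fat. Of the 46 tested member probes, 13 were called, all higher, for 10 genes, among them Ccl6, Ccl7, Ccl8, Ccl9, Ccl12, Cxcl4, Cxcl14, Cxcl15 and Cxcl16. Over all tested probes 20.5% were called for estradiol in adipose and 10.4% were called higher, against 28.3% of member probes. The median difference over the member probes was 0.19, against -0.02 over all probes. For 11 of the 13 probes the difference was positive in each of the 4 genotypes.

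Ccl12, Ccl8, Ccl6, Ccl9 and Cxcl4 are shown by the 150 bases upstream of their start in the RefSeq promoter set used here (build GRCm38.p6). These estradiol-raised ligands were grouped by their estradiol call, so their shared direction follows from that choice. Cxcl14 and Cxcl15, also called for estradiol and with a start in that set, are shown further below with the gonad-type calls. Ccl12 lies at chr11:82101695-82101844, plus strand, and Ccl8 at chr11:82115035-82115184, plus strand. Ccl6 lies at chr11:83593088-83593237, minus strand, Ccl9 at chr11:83578637-83578786, minus strand and Cxcl4, now named Pf4, at chr5:90772285-90772434, plus strand. Each is written in the direction of its gene, and capitals mark matches to the motifs named after them.
Ccl12: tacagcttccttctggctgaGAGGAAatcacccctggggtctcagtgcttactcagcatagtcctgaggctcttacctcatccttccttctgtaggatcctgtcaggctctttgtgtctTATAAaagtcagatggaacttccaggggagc
Ccl8: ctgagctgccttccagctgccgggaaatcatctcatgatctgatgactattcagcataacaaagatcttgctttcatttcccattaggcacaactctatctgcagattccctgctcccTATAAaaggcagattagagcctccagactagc
Ccl6: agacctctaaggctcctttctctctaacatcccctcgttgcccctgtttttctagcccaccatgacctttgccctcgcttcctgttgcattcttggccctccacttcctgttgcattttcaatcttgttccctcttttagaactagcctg
Ccl9: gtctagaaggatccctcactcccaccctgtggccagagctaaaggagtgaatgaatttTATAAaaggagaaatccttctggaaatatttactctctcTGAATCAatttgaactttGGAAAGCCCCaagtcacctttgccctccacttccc
Cxcl4: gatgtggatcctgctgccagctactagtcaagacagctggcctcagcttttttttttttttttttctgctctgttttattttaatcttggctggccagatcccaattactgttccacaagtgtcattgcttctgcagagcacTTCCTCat
The motifs searched were the TATA box core TATAA on the gene's strand, and on both strands the PU.1 core GAGGAA, the AP-1 motif TGANTCA, NF-kB by name and the estrogen response element by name. PU.1 is a transcription factor of myeloid cells, and NF-kB and AP-1 act downstream of inflammatory signals. Ccl12 held TATAA at bases -31 to -27 from its start and GAGGAA at -130 to -125, and Ccl8 held TATAA at -32 to -28. Ccl9 held TATAA at -92 to -88, an AP-1 match at -53 to -47 and an NF-kB match at -35 to -26, and Cxcl4 held the PU.1 core at -8 to -3 on the opposite strand. None of the 5 motifs lay in the Ccl6 window. Among all 32851 promoters of this length, 9.99% held TATAA, 14.5% the PU.1 core, 4.24% AP-1, 4.6% NF-kB and 0.0335% an estrogen response element. Of the 36 members with an entry, 10 held TATAA, 7 the PU.1 core, 4 AP-1, 6 NF-kB and 0 an estrogen response element. A member with several windows was counted if any of them matched, whereas the shares over all promoters are per window. The counts and shares are therefore not on the same footing. A match is a description of the letters only.

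Among the monocyte attractants, Ccl8 lay between 7.91 and 11.65 (median 9.45) on the 17 blank arrays and between 10.31 and 12.64 (median 11.82) on the 19 estradiol arrays. The arms overlapped, and 12 estradiol arrays lay above every blank array. The difference was 2.05 (SE 0.35, adjusted p = 1.23e-05), a 4.15-fold rise. Ccl12 had 5.17 to 8.99 (median 7.65) under blank and 8.55 to 10.46 (median 9.31) under estradiol, with 14 estradiol arrays above every blank array. It rose by 1.94 (SE 0.41, adjusted p = 0.000321), and its other probe by 1.85 (SE 0.42). Ccl7 was near the detection limit under blank, detected on 64.7% of those arrays. It ran from 5.62 to 7.19 (median 6.45) there and from 6.68 to 9.68 (median 8.06) under estradiol, a rise of 1.54 (SE 0.37, adjusted p = 0.00172). Ccl2, the best known of this group, was detected on 5 of 55 arrays, and its difference of 0.49 (SE 0.26, adjusted p = 0.186) was not called. Without XY-Sry T replicate 3 it was called, at the same difference and an adjusted p of 0.0323.

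The myeloid ligands Ccl6 and Ccl9 rose with them. Ccl6 lay at 6.79 to 9.57 (median 7.45) under blank and at 7.72 to 10.62 (median 9.59) under estradiol. Its rise was 1.72 (SE 0.28, adjusted p = 5.26e-06). Ccl9, which is abundant on every array, moved from 10.64 to 12.16 (median 11.35) under blank to 11.82 to 13.41 (median 12.74) under estradiol. The rise of 1.35 (SE 0.19, adjusted p = 4.96e-07) had 16 of 19 estradiol arrays above every blank array, and it was positive in all 4 genotypes.

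The inflammatory ligands Ccl3, Ccl4 and Ccl5 were not called, with differences of 0.08 (SE 0.24), 0.35 (SE 0.39) and -0.22 (SE 0.71). Cxcl16 rose by 1.18 (SE 0.26, adjusted p = 0.000704), from a blank range of 8.24 to 10.83 (median 9.31) to 10.07 to 11.35 (median 10.77). Cxcl4, platelet factor 4, rose by 1.15 (SE 0.22, adjusted p = 0.0001), from 6.74 to 9.61 (median 8.56) to 7.47 to 10.33 (median 9.59). For both the arms overlapped, with 7 and 8 estradiol arrays above every blank array.

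**Figure D2:**
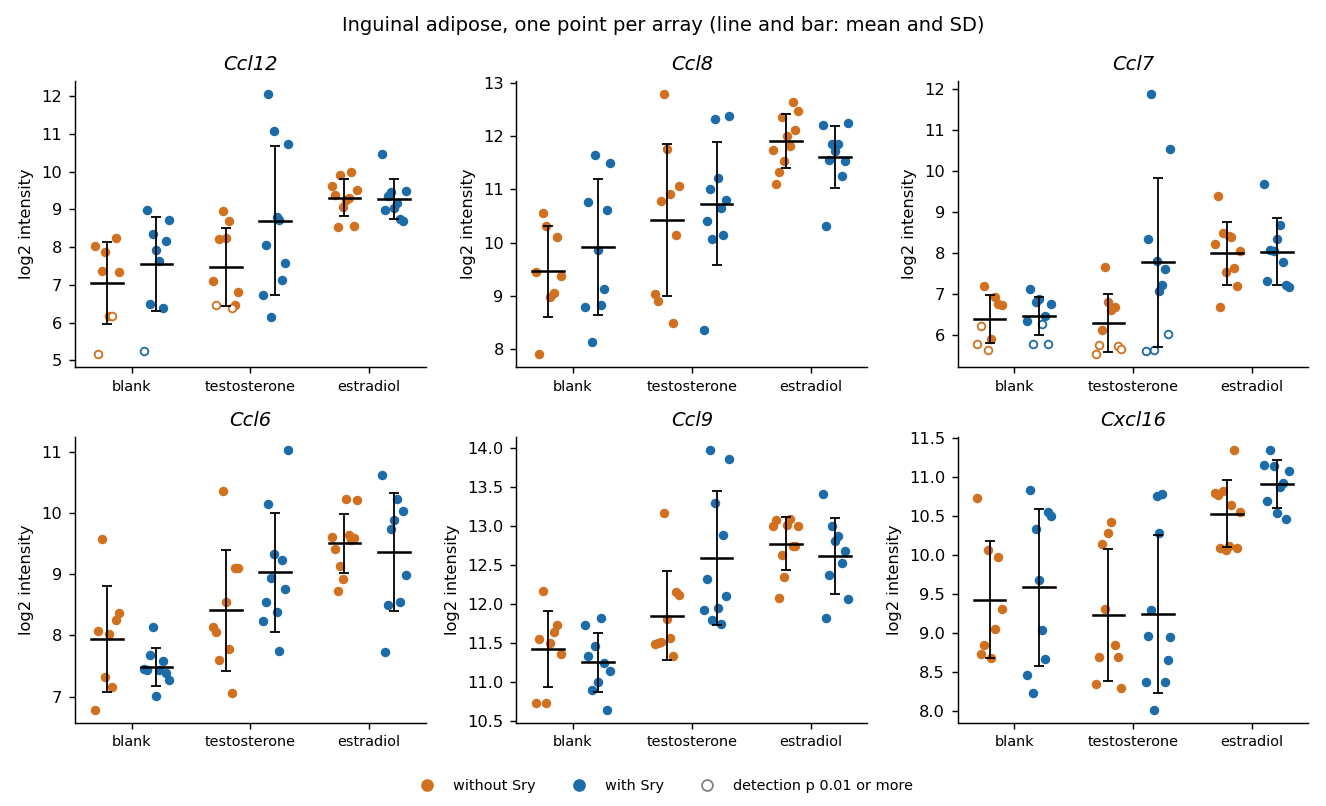
Log2 intensity (y axis) of Ccl12, Ccl8, Ccl7, Ccl6, Ccl9 and Cxcl16 in inguinal adipose by treatment (x axis), with 1 point per array coloured by gonad type, open where the detection p was 0.01 or more, and the mean and SD of each arm. The estradiol arrays lie high for both gonad types, with Ccl12 means of 9.31 without and 9.27 with Sry, and the testosterone arm with Sry is wide for Ccl12, from 6.16 to 12.06.

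Macrophage markers moved the same way: 15 of 15 tested macrophage marker probes were called higher with estradiol, with a median difference of 1.11. Their mean level ran from 7.17 to 8.96 on blank and from 8.23 to 9.75 on estradiol arrays, and 1 listed probe, Msr1, was detected on no array. With the macrophage score as a covariate, 2 member probes were called for estradiol, Ccl11 and Cxcl12, both lower, where 3.92% of all probes were called. Ccl8 then differed by 0.26 (SE 0.41) and Ccl12 by 0.07 (SE 0.52). Of 9 adipocyte marker probes, 4 were called lower with estradiol. In bulk tissue, more cells of a type and more RNA per cell cannot be told apart. The part of macrophage content in the estradiol result was not tested.

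Hormone and slide overlapped in part, since only 2 of the 8 adipose slides held both blank and estradiol arrays. Within those 2 slides each of the 13 called probes was higher under estradiol, by 1.25 to 1.58 for Ccl8. With slide as a block 12 member probes were called, where 14.3% of all probes were called. These were 11 higher and a Cxcl12 probe lower. Ccl7 (1.21, SE 0.46, adjusted p = 0.0709) and Cxcl14 (0.59, SE 0.27, adjusted p = 0.152) were not among them.

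Ccl6 and Ccl9 were called higher with testosterone in fat, and no other member was called. Ccl9 rose by 0.87 (SE 0.19, adjusted p = 0.0036), from 10.64 to 12.16 (median 11.35) under blank to 11.33 to 13.98 (median 11.94). Ccl6 rose by 0.99 (SE 0.28, adjusted p = 0.0241), from 6.79 to 9.57 to a range of 7.06 to 11.03 (median 8.55). The arms overlapped widely, with 6 testosterone arrays above every blank array for Ccl9 and 3 for Ccl6. Over all probes 4.75% were called for testosterone, 2.16% higher, against 4.35% of member probes (2 of 46), so the share called is near the background. The median difference over member probes was -0.01, against -0.02 over all probes. Testosterone and estradiol were compared with the same blank arrays, and the Ccl9 differences were 0.87 and 1.35.

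With slide as a block no member was called for testosterone, where 1.75% of all probes were called. In that fit 6 members had an unadjusted p under 0.05. Ccl9 differed by 0.78 (SE 0.24, adjusted p = 0.0867) and Ccl6 by 0.80 (SE 0.32, adjusted p = 0.233). Within the 2 slides that held both treatments Ccl9 differed by 0.03 and 1.31, and Ccl6 by 0.20 and 1.63. Without XX B replicate 1, or without XX T replicate 4, 1 member was called, and without XXSry T replicate 2 there were 4. A further 3 members just missed the call: Ccl24, which draws eosinophils, by 0.90 (SE 0.30, adjusted p = 0.075), Cxcl4 by 0.67 (SE 0.22, adjusted p = 0.0691) and the second Cxcl14 probe by 0.67 (SE 0.23, adjusted p = 0.0782). Of the macrophage marker probes, 3 of 15 were called higher with testosterone. With the macrophage score as a covariate Ccl9 was higher by 0.47 (SE 0.15, adjusted p = 0.0381), and Ccl11 and Cxcl12 were called lower, where 7.26% of all probes were called.

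Cxcl15, Cx3cl1 and Cxcl14 were lower in fat of animals with Sry. Cxcl15 and 1 Cxcl14 probe were also called for estradiol, and Cx3cl1 was not. Cxcl15, or lungkine, is a mouse CXC chemokine of epithelia, Cx3cl1, or fractalkine, is a membrane-anchored ligand of Cx3cr1, and Cxcl14 is made by many epithelia. These were 4 called probes for 3 genes, with 0 higher, where 7.34% of all probes were called for gonad type and 4.71% were called lower. The median difference was 0.02 over member probes and 0.03 over all probes, and no receptor was called.

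Their upstream bases are shown to set them beside those of the estradiol-raised ligands above. The sets are not distinct, since Cxcl15 and a Cxcl14 probe were called for estradiol too. Cxcl15 lies at chr5:90794384-90794533, plus strand, Cx3cl1 at chr8:94772030-94772179, plus strand and Cxcl14 at chr13:56296552-56296701, minus strand, in RefSeq on GRCm38.p6, with capitals as above.
Cxcl15: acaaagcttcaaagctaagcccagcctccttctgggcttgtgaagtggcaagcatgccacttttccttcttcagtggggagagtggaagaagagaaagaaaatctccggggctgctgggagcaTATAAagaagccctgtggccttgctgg
Cx3cl1: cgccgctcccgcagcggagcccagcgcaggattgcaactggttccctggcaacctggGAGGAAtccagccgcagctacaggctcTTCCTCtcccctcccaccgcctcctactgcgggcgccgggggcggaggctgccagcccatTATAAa
Cxcl14: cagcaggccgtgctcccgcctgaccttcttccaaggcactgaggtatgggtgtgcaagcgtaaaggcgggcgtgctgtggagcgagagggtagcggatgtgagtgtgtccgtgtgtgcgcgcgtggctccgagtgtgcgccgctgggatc
Cxcl15 held TATAA at -27 to -23. Cx3cl1 held TATAA at -6 to -2 and the PU.1 core at -93 to -88 and, on the opposite strand, at -66 to -61. None of the 5 motifs lay in the Cxcl14 window.

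Cxcl15 had the largest gonad difference of any tested member in fat. Without Sry it ran from 6.86 to 13.49 (median 9.75) on 27 arrays and was detected on all of them. With Sry it ran from 4.48 to 10.82 (median 6.31) on 28 arrays and was detected on 53.6%. The difference was -3.47 (SE 0.37, adjusted p = 1.98e-10), and it was negative in 5 of the 6 strata of treatment and sex chromosomes and in 8 of 8 slides.

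The estradiol difference of Cxcl15 depended on gonad type. In animals without Sry the level was 8.51 ± 1.23 (SD, n = 8) under blank, 9.18 ± 0.52 (n = 9) under testosterone and 12.72 ± 0.45 (n = 10) under estradiol. The lowest of the 10 estradiol arrays, at 12.1, lay above the highest blank array, at 10.52. In animals with Sry the levels were 7.08 ± 1.92 (n = 9), 6.02 ± 1.65 (n = 10) and 6.96 ± 2.26 (n = 9), and the 3 arms overlapped. The interaction, the estradiol difference with Sry minus that without, was -4.23 (SE 0.91, adjusted p = 0.00504), and Cxcl15 was the only member called among 0.813% of all probes. The estradiol difference averaged over genotypes, 1.89 (SE 0.45, adjusted p = 0.00157), is a mean of these unlike values.

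Cx3cl1 ran from 6.74 to 9.41 (median 8.04) without Sry and from 5.12 to 7.63 (median 6.89) with it. It was lower by the fit, at -1.41 (SE 0.16, adjusted p = 1.01e-09), in all 6 strata and all 8 slides, and 13 of the 28 arrays with Sry lay below all of those without it. Neither hormone was called for it. Testosterone differed by -0.23 (SE 0.20, adjusted p = 0.553) and estradiol by -0.18 (SE 0.20, adjusted p = 0.59). Its receptor Cx3cr1 differed by -0.26 (SE 0.27, adjusted p = 0.70) between gonad types.

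Cxcl14 was lower with Sry on both probes, by -0.74 (SE 0.18, adjusted p = 0.00305) on the brighter and -0.61 (SE 0.18, adjusted p = 0.0281) on the dimmer. On the brighter probe it ran from 8.35 to 11.69 (median 10.14) without Sry and from 8.18 to 11.02 (median 9.66) with it, so the arms overlapped almost fully. The 2 probes disagreed on estradiol, at -0.02 (SE 0.22) and 0.70 (SE 0.23, adjusted p = 0.0213). On the dimmer probe the estradiol call was lost without XX B replicate 2 (adjusted p = 0.0704) and with no background correction (0.27, adjusted p = 0.0808). Its gonad call was lost without XX B replicate 3 (adjusted p = 0.0765) or XX T replicate 3 (adjusted p = 0.0503). By arm the brighter probe was 10.27 ± 0.91 without and 9.18 ± 0.70 with Sry under blank, and 9.81 ± 0.56 and 9.68 ± 0.67 under estradiol. That interaction, 1.09 (SE 0.44, adjusted p = 0.536), was not called.

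**Figure D3:**
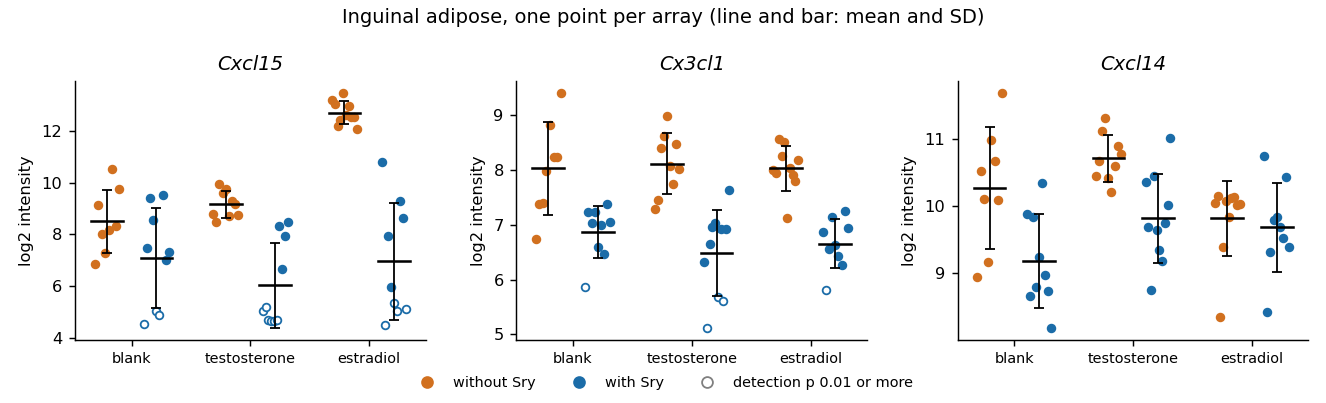
Log2 intensity (y axis) of Cxcl15, Cx3cl1 and Cxcl14 in inguinal adipose by treatment (x axis) and gonad type (colour), with 1 point per array, open where not detected, and the mean and SD of each arm. Estradiol arrays without Sry hold Cxcl15 at 12.1 to 13.49, above every other array, while Cx3cl1 has a lower mean with Sry in each treatment, with overlapping arrays.

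Epithelial markers moved with these members. Of 17 tested mammary epithelium marker probes 15 were lower with Sry, and the mean of the list ran from 5.1 to 7.33 with Sry and from 7.22 to 9.44 without. Among its defining markers Krt8 was detected on 54, Krt18 on 40 and Krt14 on 48 of the 55 arrays, and Ehf on none. With this score as a covariate, 0 of 46 members and 0.0% of all probes were called for gonad type, with unadjusted p under 0.05 for 5 members and for 1955 of all probes. Cx3cl1 then differed by -0.47 (SE 0.39), Cxcl14 by 0.64 (SE 0.41) and Cxcl15 by 1.28 (SE 0.58), while the Cxcl15 interaction with estradiol was called at -2.98 (SE 0.57, adjusted p = 0.00124). The score overlapped between gonad types only from 7.22 to 7.33, and the part of epithelium in the result was not tested.

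Lymph node content varied widely from one piece of fat to the next. The lymph node score, the mean of 39 tested lymphocyte and lymph node vessel marker probes with no chemokine among them, ran from 5.2 to 10.56. It left a gap: 26 of 55 arrays were above 8, and none lay between 7.61 and 8.34. High arrays were 8 of 17 under blank, 6 of 19 under testosterone, 12 of 19 under estradiol, 13 of 28 with Sry and 13 of 27 without. The score differed by -0.24 between gonad types (7.52 ± 2.04 with and 7.76 ± 1.98 without Sry). It differed by -1.08 for testosterone (6.96 ± 1.95, n = 19, against 8.04 ± 2.06, n = 17) and by -0.07 for estradiol (7.97 ± 1.89, n = 19). The two-sided permutation p-values were 0.655, 0.116 and 0.916, and 0.916, 0.349 and 0.916 after adjustment over the 3 tests.

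Several chemokines and receptors followed that score. Within groups, 30 of the 46 member probes had a called slope, 23 upward and 7 downward, where 50.4% of all probes had one and 23.2% an upward one. Slopes of at least 0.75 log2 per log2 of score were found in 8 of 46 member probes and in 0.786% of all probes. The steepest belonged to Ccr6, the B cell receptor of Ccl20, at 1.27 (SE 0.03), and to the Ccr7 ligands Ccl21a, Ccl21b and Ccl21c at 1.12, 1.09 and 1.14 (SE 0.04 each). The Ccl21 copies are near-identical in sequence, so their probes cannot be read as separate genes. Ccl5, a T cell chemokine, had 1.05 (SE 0.04), Ccl19, the other Ccr7 ligand, 0.99 (SE 0.03) and Cxcl13, the B cell attractant, 0.80 (SE 0.05).

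Other receptors had shallower slopes than Ccr6: Cxcr4 0.53 (SE 0.03), Cx3cr1 0.47 (SE 0.03), Ccr7 0.43 (SE 0.03), Cxcr3 0.39 (SE 0.03) and Ccr8 0.19 (SE 0.02). Ccr7 was detected on 22 of the 55 arrays. Among estradiol-raised members the slopes were 0.26 (SE 0.07) for Ccl8, 0.35 (SE 0.08) for Ccl12, 0.35 (SE 0.03) for Cxcl16 and -0.13 (SE 0.06) for Ccl6, and those of Ccl8, Ccl12 and Cxcl16 were called. Cxcl12 differed by probe, from 0.03 (SE 0.03) on the brightest to 0.33 (SE 0.05).

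**Figure D4:**
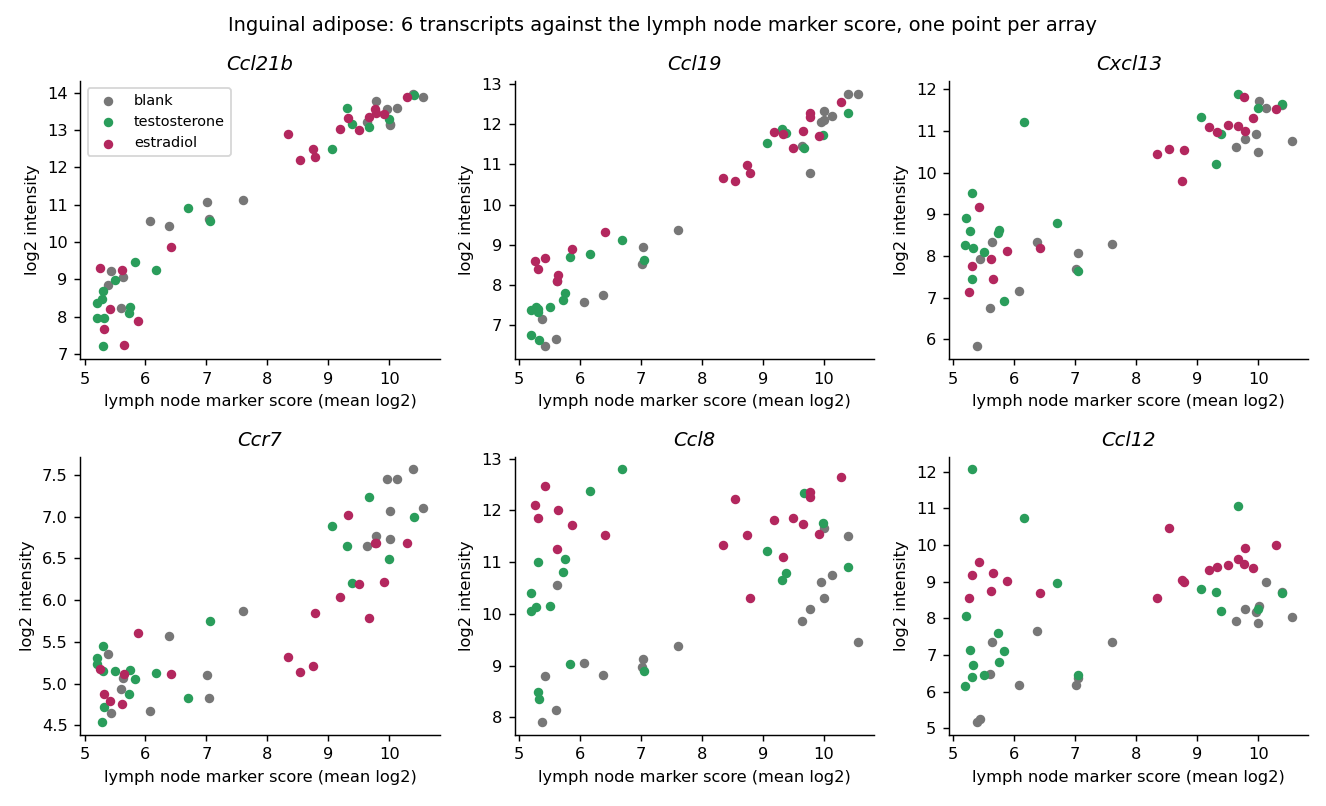
Log2 intensity (y axis) of 6 transcripts in each inguinal adipose array against its lymph node marker score (x axis, mean log2), coloured by treatment. Ccl21b, Ccl19, Cxcl13 and Ccr7 rise with the score in all 3 treatments, while Ccl8 and Ccl12 are high on estradiol arrays at both low and high scores.

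None of these lymph node chemokines was called for gonad type or hormone without the score. The estradiol difference was 0.60 (SE 0.66, adjusted p = 0.588) for Ccl19, -0.34 (SE 0.74) for Ccl21b, 0.57 (SE 0.57) for Cxcl13 and -0.37 (SE 0.31) for Ccr7. The testosterone difference was -1.48 (SE 0.74, adjusted p = 0.271) for Ccl21b and -0.80 (SE 0.66, adjusted p = 0.538) for Ccl19. With the score as a covariate the standard error of Ccl19 fell from 0.66 to 0.14, and it was higher with estradiol by 0.75 (adjusted p = 3.23e-05). Cxcl13 was then higher with testosterone by 1.02 (SE 0.23, adjusted p = 0.0026), with estradiol by 0.69 (SE 0.22, adjusted p = 0.016) and with Sry by 0.61 (SE 0.18, adjusted p = 0.0195). Cx3cr1 was higher with estradiol by 0.54 (SE 0.14, adjusted p = 0.0021).

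In that fit 21 member probes were called for estradiol, 18 higher and 3 lower, among 27.0% of all probes. For gonad type 8 were called among 10.3%, and for testosterone 6 among 7.06%. The estradiol calls included all 13 found without the score, with Ccl8 at 2.09 (SE 0.31) and Ccl12 at 1.99 (SE 0.34). The testosterone calls gained Ccl8, at 1.14 (SE 0.31, adjusted p = 0.0178), and Ccl12, at 1.12 (SE 0.35, adjusted p = 0.0378). Cxcr3 and Xcl1, genes of T and natural killer cells, were lower with Sry by -0.43 (SE 0.11) and -0.37 (SE 0.12). The score and the chemokines come from the same arrays, so these values describe fat at equal lymph node score.

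No member was called for sex chromosomes in the main fit of either tissue, where few probes of any kind were called. In adipose this was 0 of 46 probes, with 5 at an unadjusted p under 0.05 and 0.137% of all probes called. In liver it was 0 of 24, with 2 and 0.186%, so the share called is near the background in both. The interaction of testosterone with gonad type called 0 members in adipose (3 at an unadjusted p under 0.05, 0.0137% of all probes called) and 0 in liver (1 and 0.124%). That of estradiol called 0 in liver (2 and 0.0795%). Without both doubted liver arrays, 0 liver members had an unadjusted p under 0.05 for sex chromosomes. The estradiol interaction then called 0 members and 0.327% of all liver probes. With array weights in the fit, 10 adipose member probes, for 9 genes, were called for sex chromosomes, where 7.84% of all probes were called. Of these member probes, 9 were lower and 1 was higher in XX. The lower ones included Ccl19 at -1.34 (SE 0.44, adjusted p = 0.0488) and Ccl21b at -1.56 (SE 0.51, adjusted p = 0.0496). The XX arrays had a lymph node score of 7.22 ± 1.98 (n = 26) and the XY- arrays 8.02 ± 1.96 (n = 29). Without weights 0 members were called with or without that score as a covariate, and with the score 0 had an unadjusted p under 0.05. No fit held both the weights and the score, so the part of lymph node content in the weighted calls was not tested.

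In liver, 4 members were lower in animals with Sry, among them Ccl6, Cxcl13 and Cxcl16. The calls were 6 of the 24 tested probes, with none higher, where 3.4% of all probes were called and 2.85% were called lower. The median difference was -0.07 over member probes and 0.01 over all probes. Cxcl13 ran from 4.74 to 9.03 (median 5.52) on 30 arrays without Sry and from 4.4 to 6.11 (median 4.98) on 30 with it. It was lower by -0.76 (SE 0.15, adjusted p = 0.000253). Cxcl13 was detected on 53.3% of arrays without Sry and 16.7% of those with it.

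Ccl6, at -0.48 (SE 0.12, adjusted p = 0.00635), was detected on 36.7% of arrays without and 6.67% with Sry. Cxcl16, detected on all 60 arrays, ran from 6.9 to 8.73 (median 7.82) without and from 6.75 to 8.11 (median 7.56) with Sry, a difference of -0.28 (SE 0.08, adjusted p = 0.0233). With median centring Ccl6 (-0.43, adjusted p = 0.0537) and Cxcl16 (-0.23, adjusted p = 0.345) were no longer called. Each of the 6 probes was lower with Sry in 8 of 8 slides.

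Testosterone lowered Cxcl16 and Ccl9 in liver and raised Ccl25, a ligand best known for guiding T cells to thymus and gut. In all, 5 of 24 probes were called, where 19.1% of all probes were called and 10.9% were called lower, so the share is near the background. The median difference was -0.13 over member probes. Cxcl16 ran from 7.17 to 8.73 (median 7.82) under blank and from 6.75 to 7.82 (median 7.42) under testosterone. The arms overlapped, and 8 testosterone arrays lay below every blank array. Its difference was -0.50 (SE 0.09, adjusted p = 6.89e-05). Ccl9 ran from 10.77 to 12.29 (median 11.96) under blank and from 11.17 to 11.85 (median 11.6) under testosterone, a difference of -0.28 (SE 0.10, adjusted p = 0.0314). Ccl25 was higher by 0.41 (SE 0.11, adjusted p = 0.00433) on 1 probe and by 0.11 (SE 0.12) on the other, which was detected on 8 of 60 arrays. Ccl27, at -0.28 (SE 0.12, adjusted p = 0.0922), just missed the call. With median centring Ccl9 (-0.37, adjusted p = 0.0612) and Ccl25 (0.34, adjusted p = 0.0721) were no longer called. Ccl9 also lost its call with no filter (adjusted p = 0.0545) and without XX B replicate 4, XX B replicate 5 or XX T replicate 1, with adjusted p from 0.0525 to 0.0593. Without XX T replicate 1, 3 probes were called in place of 5. Hormone and slide overlapped in part in liver too, since only 3 of the 8 slides held both blank and testosterone arrays. Within those 3 slides Cxcl16 differed by -0.64 to -0.22, Ccl9 by -0.45 to -0.21 and Ccl25 by 0.13 to 0.45.

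Estradiol raised Cxcl13, Ccl6 and Ccl19 in liver. In all, 5 of 24 probes were called, all higher, where 6.82% of all probes were called and 3.55% were called higher. The median difference was 0.14 over member probes and -0.02 over all probes. Cxcl13 ran from 4.4 to 6.43 (median 4.97) under blank and from 4.57 to 9.03 (median 5.96) under estradiol, a difference of 0.91 (SE 0.18, adjusted p = 0.000419). Ccl6 was higher by 0.64 (SE 0.14, adjusted p = 0.00216), with most arrays below detection. With Sry it was detected on 0 of 10 blank and 1 of 10 estradiol arrays. Without Sry it was detected on 3 of 10 and 5 of 10. In that last arm XX E replicate 1 had 8.31, against 4.98 to 6.29 on the others. Ccl19 ran from 5.29 to 6.58 (median 5.89) to 5.07 to 8.43 (median 6.15), a difference of 0.43 (SE 0.13, adjusted p = 0.0366). The Ccl19 call was lost with median centring (0.27, adjusted p = 0.227), with no filter (adjusted p = 0.0707) and without any 1 of 13 arrays, with adjusted p from 0.0509 to 0.0719. Of these XX E replicate 1 moved it most, to 0.34. Only 2 of the 8 liver slides held both blank and estradiol arrays. Within those 2 slides Cxcl13 was higher by 1.11 and 1.4, Ccl6 by 0.45 and 1.16, and Ccl19 by 0.23 and 1.19.

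The estradiol levels were highest in livers without Sry. Cxcl13 there was 6.81 ± 1.17 under estradiol and 5.49 ± 0.65 under blank, against 5.35 ± 0.55 and 4.84 ± 0.47 with Sry (n = 10 each). The interaction was -0.81 (SE 0.36, adjusted p = 0.793), so a difference between gonad types was not shown. Cxcl1, a neutrophil attractant, was 10.76 ± 1.77 under estradiol and 8.89 ± 0.70 under blank without Sry, and 9.28 ± 1.21 and 9.36 ± 0.52 with it. Its mean difference of 0.89 (SE 0.31, adjusted p = 0.073) and its interaction of -1.95 (SE 0.63, adjusted p = 0.329) were not called. Without both doubted liver arrays, 7 member probes were called higher for estradiol, and Cxcl1 was among them. In that fit 7.63% of all probes were called. Of 8 neutrophil marker probes 7 were higher with estradiol, and their mean ran from 5.14 to 10.11 under estradiol and from 4.97 to 7.57 under blank. Ccl4 also just missed, at 0.44 (SE 0.16, adjusted p = 0.0903). Without XY- B replicate 1, 8 probes were called for estradiol. With slide as a block 10 were called, for 8 genes that add Cxcl1 and the 3 Ccl21 copies, where 9.26% of all probes were called.

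**Figure D5:**
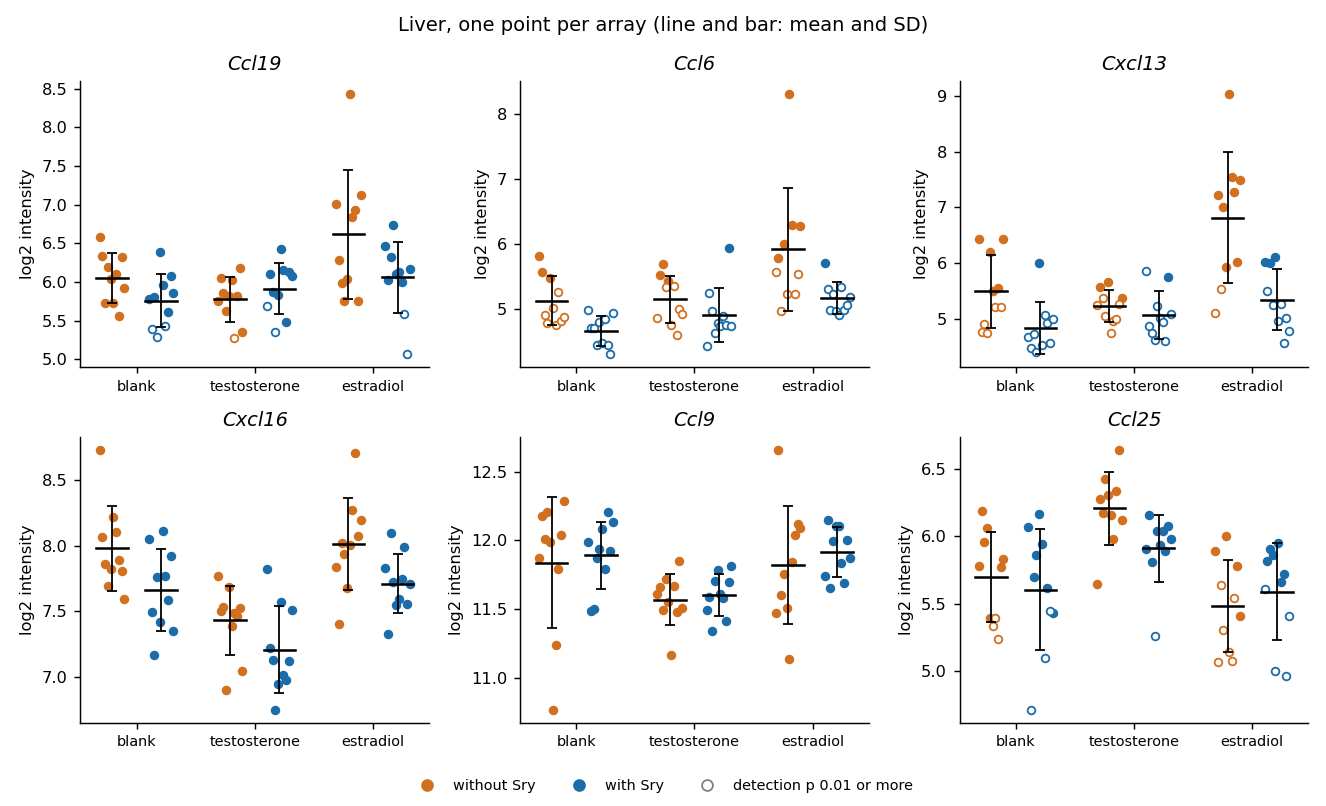
Log2 intensity (y axis) of Ccl19, Ccl6, Cxcl13, Cxcl16, Ccl9 and Ccl25 in liver by treatment (x axis) and gonad type (colour), with 1 point per array, open where not detected, and the mean and SD of each arm. Ccl19, Ccl6 and Cxcl13 have their highest mean in estradiol arrays without Sry, with Cxcl13 up to 9.03, and many of the other Ccl6 and Cxcl13 arrays are open points near the floor.

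Macrophage markers moved with the liver members too. Of 13 tested macrophage marker probes, 9 were lower with Sry, 10 were higher with estradiol and 4 were lower with testosterone. Of 8 probes for Kupffer cells, the resident macrophages of liver, 7, 5 and 5 were called in the same directions. The macrophage score ran from 5.74 to 7.08 with Sry and from 5.81 to 8.27 without. With that score as a covariate 0 members were called for gonad type (0.424% of all probes, 2 members at an unadjusted p under 0.05) and 0 for estradiol (0.619%, 2 members). For testosterone Cxcl16 and Ccl25 were still called, among 19.1% of all probes. Of the lymph node list only 6 probes were tested in liver, and 4 of them were lower with Sry. The part of macrophage and lymphocyte content in these results was not tested.

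Other genes of the chemokine system, such as decoy receptors, signal transducers and interferon-linked regulators, were read from a separate list. Of 50 tested adipose probes, 2 were called for gonad type, 0 for testosterone (4 at an unadjusted p under 0.05) and 5 for estradiol, where 7.34%, 4.75% and 20.5% of all probes were called. Of the estradiol calls 2 were higher and 3 were lower. The lower ones included Rarres2, the chemoattractant chemerin, at -0.62 (SE 0.13), and an Irf1 probe at -0.46 (SE 0.15). Ackr2, a decoy receptor of inflammatory CC chemokines listed as Ccbp2, was also lower, at -0.63 (SE 0.16). Of 26 tested liver probes, 9 were lower with Sry and 11 were lower with testosterone, with none higher, and 2 were higher with estradiol. Over all liver probes 2.85%, 10.9% and 3.55% were called in those directions. Ackr1, the Duffy chemokine receptor listed as Dfy, was lower by -0.45 (SE 0.10) with Sry and by -0.63 (SE 0.12) with testosterone. Was and Rac2, which drive the actin skeleton of migrating leukocytes, were lower with Sry by -0.62 (SE 0.09) and -0.62 (SE 0.11) and higher with estradiol by 0.40 (SE 0.11) and 0.60 (SE 0.13).

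Set side by side, Ccl6 was called higher with estradiol in both tissues, at 1.72 in fat and 0.64 in liver. It was detected on all 55 fat arrays but on only 13 of 60 liver arrays. Ccl9 was higher with testosterone in fat (0.87) and lower in liver (-0.28), and Ccl6 differed by 0.99 and 0.13 (SE 0.14). Cxcl16 was higher with estradiol in fat (1.18) and differed by 0.04 (SE 0.09) in liver, where it was lower with Sry and with testosterone. Cxcl12, measured in both tissues by 4 tested probes, was called for neither hormone nor gonad type in either, with differences on its brightest probe of -0.21 (SE 0.12) and -0.07 (SE 0.09) for estradiol. In fat the other 3 Cxcl12 probes went the other way, at 0.54 (SE 0.25), 0.61 (SE 0.29) and 0.22 (SE 0.20). Its receptor Cxcr4, tested in fat alone, differed by -0.17 (SE 0.38). Differences between the tissues were not tested.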

How the data were processed

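Gene expression was measured on Illumina BeadChips in 60 liver and 55 inguinal adipose samples. Per the file headers, the deposited values are a mean bead intensity and a detection p-value for each probe and array, and no background correction or normalisation by the authors is recorded in them. The submitters' processing notes name lumi, whose role and version are not given in the sources used here. The 115 columns of bead standard errors were not used. Gene symbols damaged in the adipose table were read from the liver table by probe.

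Each tissue was processed alone with limma 3.58.1 (R 4.3.3): background correction with negative controls inferred from the detection p-values, an offset of 16, quantile normalisation and log2. Probes with a detection p under 0.01 on at least 5 liver or 3 adipose arrays were tested. Linear models with 1 mean per group gave 6 contrasts per tissue: sex chromosomes, gonad type, testosterone and estradiol against blank, each averaged over the other factors, and both hormone by gonad interactions. Empirical Bayes p-values were adjusted by Benjamini-Hochberg over all tested probes, with calls under 0.05. The lymph node score was compared by two-sided permutation tests with 100000 resamples.

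The text names every member called for gonad type, a hormone or an interaction, a fixed set of lymph node, Cxcl12 and monocyte axis genes, and members that just missed. Results of some called genes are not reported here. A gene with several probes is given by the probe with the highest mean. The members and lists were chosen with earlier results of these data known. Alternatives covered background correction, normalisation, the filter, slide as a block, array weights, marker scores as covariates, doubted arrays and each array left out. The models were tested on simulated data. Promoter windows came from RefSeq on GRCm38.p6 for the 36 members with an entry. The number of arrays limits the precision.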

Additional observations from a re-analysis of the deposited data

Results flagged for a closer look

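Single arrays stood far from the rest in 11 of the 107 sets checked with Dixon's criterion, which chance alone would meet in about 1 in 20 sets. A set for a gene held the 8 to 10 arrays of 1 treatment and gonad type, over both sex chromosome types, and a set for the lymph node score held 1 group. In liver, XX E replicate 1 was high for Ccl19 at 8.43 (the other arrays of the set 5.75 to 7.13) and for Ccl6 at 8.31 (4.98 to 6.29). Cxcl13 was 6.01 in liver XY-Sry B replicate 4 (4.4 to 5.07), and Ccl25 was 5.26 in liver XY-Sry T replicate 4 (5.81 to 6.16).

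In fat, XY- T replicate 4 was high for Ccl9 at 13.2 (11.3 to 12.2). XY- E replicate 3 was low for Cxcl14 at 8.35 (9.39 to 10.1). Ccl12 was 10.5 in XY-Sry E replicate 1 (8.69 to 9.48). Cx3cl1 was 7.11 in XX E replicate 1 (7.79 to 8.57), the array whose label fields disagree on the hormone.

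The lymph node score in fat was 10.4 in XX T replicate 1 (5.31 to 5.75), 9.67 in XY-Sry T replicate 5 (5.2 to 5.33) and 5.6 in XY-Sry B replicate 2 (9.96 to 10.1), so groups of like treatment mixed pieces with high and low scores.

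The estradiol difference of Cxcl15 in fat was unlike between gonad types, with an interaction of -4.23 (limma, adjusted p = 0.00504).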

How the results depend on the processing

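No paired analysis was possible because the labels carry no replicate numbers, so numbers were given in accession order only. With each array left out in turn, counts of called member probes ran in fat from 12 to 14 for estradiol, 3 to 4 for gonad type, 1 to 4 for testosterone, 29 to 32 for the lymph node slope and 1 to 2 for the estradiol interaction (2 without XY-Sry T replicate 3). In liver they ran from 4 to 8 for estradiol, 3 to 6 for testosterone and stayed at 6 for gonad type. Counts moved by over 1.5 times as follows. In liver, with the macrophage score, gonad type called 0, testosterone 2 and estradiol 0; testosterone called 3 with median centring and 3 with no filter, and estradiol 10 with slide as a block. In fat, array weights called 10 for sex chromosomes, 4 for testosterone and 3 for the estradiol interaction, where 7.84%, 7.27% and 1.87% of all probes were called. The lymph node score called 8 for gonad type, 6 for testosterone and 21 for estradiol, the epithelium score 0 for gonad type and the macrophage score 2 for estradiol. Testosterone called 1 with median centring and 0 with slide as a block. Median centring also moved the liver median of all probes by -0.161 for estradiol, to -0.177, and by 0.124 and 0.117 for the testosterone and estradiol interactions.

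Differences of named members that changed sign, with no cause tested, were these. With the macrophage score in fat, estradiol gave -0.75 for Ccl19, -0.29 for Ccl2, -0.44 for Ccl7, -0.26 for Cx3cr1 and -1.11 for Cxcl13, and testosterone gave -0.47 for Cxcl13. With it in liver, gonad type gave 0.17 for Ccl21a, 0.0021 for Ccl21c and 0.013 for Cxcl13, and testosterone 0.37 for Cxcl13 and 0.0089 for Ccl19, which was 0.10 with slide as a block. With the epithelium score, gonad type gave 0.64 and 0.47 for Cxcl14, 1.28 for Cxcl15, -1.64 for Ccr7, -0.76 for Cxcl13 and 0.17 for Cxcl12, and estradiol 0.028 for Ccl21a, 0.17 for Ccl21c and 0.065 for Cxcr4. With the lymph node score, testosterone gave 0.30 for Ccl19, 0.041 for Ccr7, 0.28 for Cx3cr1 and 0.12 for Cxcr4, and gonad type 0.0015 for Cxcr4 and 0.0035 for Cxcl12. For gonad type Cxcl12 was 0.038 with median centring, 0.0081 with slide as a block and 0.0017 with the conflicting array as testosterone, and Ccr7 was -0.017 with the muscle score. Liver Ccl21b was -0.014 with no background correction, -0.0075 with array weights and -0.056 without the doubted arrays. The estradiol difference in lymph node score was 0.061 without the conflicting array.

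With arrays left out, sign changed within ranges of -0.38 to 0.0028 for Ccl19, -0.016 to 0.18 for Ccr7, -0.047 to 0.024 for Cxcl12 and -0.23 to 0.014 for Cxcr4 for gonad type in fat. The ranges were -0.028 to 0.076 for Ccl21b for gonad type in liver, -0.53 to 0.058 for Ccl21c for estradiol in fat, and -0.16 to 0.39 in fat and -0.071 to 0.046 in liver for Cxcl13 for testosterone.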
